A study of Mus musculus with 4 samples.

Results

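The genes described here are 10 genes of natural killer (NK) and cytotoxic effector function, out of the 47729 genes whose expression was deposited for LLC tumors expressing or not chemerin. They were chosen by their known function, with earlier results of these data known. They are the granule genes Gzma, Gzmb and Prf1, the receptor genes Klrk1, Klrd1, Klrb1c and Il2rb, the death ligand Fasl, the cytokine Ifng and the transcription factor Eomes. LLC is a Lewis lung carcinoma cell line of the C57BL/6 mouse, grafted under the skin of the back of syngeneic mice. The LLC-Chem cells had been transfected with pEFIN plasmids for chemerin (residues 1 to 157), which the labels name as murine, as clones picked after antibiotic selection, whereas the labels give the LLC cells as wild type. Tumors of day 5 after the graft were merged by 3 into a pool, and each group has 2 such pools, so that all 4 pools were unsorted tumor tissue from the same mouse strain and the same time. How many clones entered the LLC-Chem pools is not given in the sources used here.

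NK cells and cytotoxic T cells kill a target cell by releasing granules. Perforin opens the membrane of the target, and granzymes enter and cleave substrates that trigger its death. Activating receptors of the NK cell read stress ligands on the target, inhibitory receptors read MHC class I molecules, and interleukin-2 and interleukin-15 sustain the cells through a shared receptor chain. T-bet and Eomes are the T-box factors that maintain the NK program, and Fas ligand and interferon gamma act on the target beside the granules.

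The unit throughout is RPM, the reads of a gene per 1000000 reads of its pool. Library totals, inferred from the steps between values, ran from 28470000 to 33990000 reads, and 3 reads, used here as the limit of what can be shown, were worth 0.0883 to 0.105 RPM. This limit covers counting error only. The transfected gene Rarres2, which encodes chemerin, measured 102.2 and 98.2 RPM in LLC against 105.9 and 105.8 RPM in LLC-Chem (log2 fold change, or log2FC, 0.08, adjusted p = 0.541 by limma, a linear model that shares the spread between pools across genes). The difference did not pass the threshold, and the groups are called by their labels below. Cmklr1, the signalling receptor of chemerin, was at 38.8 and 56.2 RPM in LLC but at 21.7 and 11.7 RPM in LLC-Chem (log2FC -1.52, limma adjusted p = 0.0307). The members were checked against the tissue: all 10 were above 0 in every pool, at levels of 0.05 to 30.4 RPM, and the further NK cell marker Ncr1 was present at 2.20 and 2.50 RPM in the LLC pools.

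The promoters are shown for the members whose sequence holds a match to TGTGGT, the core of the motif bound by RUNX factors, since it was found in more of the members than any other motif searched. RefSeq promoters of GRCm38.p6, from 250 bases before to 50 bases after the start, were at hand for 8 of the 10 members, all but Klrd1 and Il2rb. Each line gives the 140 bases before the RefSeq start of the gene, 5′ to 3′ on its own strand, with capitals for every motif match. The RefSeq starts of Klrb1c and Prf1 lie inside the spans that GENCODE gives for these genes below. That of Gzmb lies upstream of its GENCODE span. All match positions are counted from the RefSeq starts.

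Gzma, chr13:113100982-113101121, minus strand: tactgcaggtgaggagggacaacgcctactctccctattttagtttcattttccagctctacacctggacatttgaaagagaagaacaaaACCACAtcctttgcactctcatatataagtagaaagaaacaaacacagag
Gzmb, chr14:56262335-56262474, minus strand: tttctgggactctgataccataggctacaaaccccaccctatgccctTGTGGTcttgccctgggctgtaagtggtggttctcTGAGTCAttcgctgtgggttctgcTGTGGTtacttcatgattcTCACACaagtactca
Prf1, chr10:61297696-61297835, plus strand: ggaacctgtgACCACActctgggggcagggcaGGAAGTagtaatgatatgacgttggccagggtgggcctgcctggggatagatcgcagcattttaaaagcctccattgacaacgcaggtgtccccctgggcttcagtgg
Klrk1, chr6:129623865-129624004, minus strand: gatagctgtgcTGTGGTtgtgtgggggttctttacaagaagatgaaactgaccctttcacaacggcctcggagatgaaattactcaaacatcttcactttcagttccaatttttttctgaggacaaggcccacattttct
Klrb1c, chr6:128788642-128788781, minus strand: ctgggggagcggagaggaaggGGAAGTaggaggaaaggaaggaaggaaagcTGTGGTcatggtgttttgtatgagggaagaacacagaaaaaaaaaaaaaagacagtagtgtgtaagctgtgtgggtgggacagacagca

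TGTGGT, read on both strands in the whole window of 300 bases, was found in 5 of the 8 member promoters and in 16.8% of 32851 mouse promoters. The match lies at -50 to -45 in Gzma, at -93 to -88 and again at -34 to -29 in Gzmb, at -130 to -125 in Prf1, at -129 to -124 in Klrk1 and at -89 to -84 in Klrb1c, counted from the base before the start as -1. The ETS core GGAAGT was found in 3 member promoters (Prf1, Klrb1c and Fasl) against 23.8% of all promoters. TGACTCA, the AP-1 motif, was found in 2 (Gzmb and Klrk1) against 5.2%, and TTCNNNGAA, the STAT motif, in 2 (Gzmb and Ifng) against 8.3%. The T-box core GTGTGA was found in Gzmb alone, against 14.5% of all promoters. The longer T-box form AGGTGTGA, which contains that core, was found in 0 of 8, against 1.28%. These matches are letters in a window and were not tested as binding sites.

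Granzyme A is the tryptase-like protease of the cytotoxic granule. Gzma (ENSMUSG00000023132, chromosome 13, 113093825 to 113100981 of GRCm38) measured 17.8 and 12.3 RPM in LLC against 1.05 and 0.40 RPM in LLC-Chem. Both LLC pools thus lay far above both LLC-Chem pools. The means were 15.1 ± 3.92 RPM (SD, n = 2) for LLC and 0.725 ± 0.459 RPM (SD, n = 2) for LLC-Chem. The log2FC on log2(RPM + 0.5) was -3.70 (SE 0.34, limma adjusted p = 0.0093, two-sided). A fold change on this scale understates the difference of genes near 0. In such bulk tissue, fewer cells of a type and less RNA per cell cannot be told apart.

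Granzyme B cleaves caspases and other substrates inside the target. Gzmb (ENSMUSG00000015437, chromosome 14, 56258838 to 56262260) measured 30.4 and 10.4 RPM in the LLC pools, which differ 2.92-fold from each other, and 1.40 and 0.40 RPM in LLC-Chem. The groups did not overlap, and the log2 fold change was -3.81 (SE 0.58, limma adjusted p = 0.0165). Leaving out a pool moved its log2FC more than that of any other member tested, to -3.06 without the first LLC pool and to -4.56 without the second.

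Perforin forms the pore through which granzymes pass. Prf1 (ENSMUSG00000037202, chromosome 10, 61297833 to 61304680) measured 10.04 and 6.20 RPM in the LLC pools, or 309 and 176 reads, and 0.65 and 0.05 RPM in LLC-Chem, or 21 and 1 reads. The second LLC-Chem pool thus lies under the level of 3 reads. The log2 fold change was -3.40 (SE 0.43, limma adjusted p = 0.013). Taken over the summed reads of each group, the LLC-Chem level was 3.98% of the LLC level (95% exact interval for counting error 2.47% to 6.10%). On the reads recovered from the RPM, edgeR gave log2 fold changes of -4.41 for Gzma, -4.51 for Gzmb and -4.57 for Prf1 (adjusted p = 0.0131, 0.0227 and 0.0267 from edgeR's quasi-likelihood test).

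By limma, the receptor members had smaller log2 fold changes. Klrk1 (ENSMUSG00000030149, chromosome 6, 129610323 to 129623864) encodes NKG2D, the activating receptor for stress-induced ligands. It stood at 9.79 and 7.0 RPM in LLC against 2.50 and 0.850 RPM in LLC-Chem (log2FC -2.13, SE 0.42, limma adjusted p = 0.0264). Klrd1 (ENSMUSG00000030165, chromosome 6, 129591782 to 129598775), which lies 11547 bases from Klrk1, encodes CD94, the partner chain of the NKG2 receptors for the MHC molecule Qa-1. It measured 6.20 and 3.0 RPM against 1.30 and 0.40 RPM. Its log2 fold change of -1.93 (SE 0.46) was the smallest of the members tested by limma, and the closest to the threshold (limma adjusted p = 0.0389). By edgeR Klrk1 had the smaller one (-2.30 against -2.43). Klrd1 was not called by edgeR's quasi-likelihood test on reads recovered from the RPM (log2FC -2.43, adjusted p = 0.0506), nor by limma without a trend (adjusted p = 0.0563). When edgeR tested all genes above 0, it called neither Klrk1 (adjusted p = 0.0561) nor Klrd1 (adjusted p = 0.0758).

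Klrb1c (ENSMUSG00000030325, chromosome 6, 128778485 to 128789215) encodes the NK1.1 antigen, which marks NK cells in C57BL/6 mice. It measured 2.80 and 2.70 RPM in LLC against 0.25 and 0.10 RPM in LLC-Chem. The LLC pools differed little here, while the LLC-Chem pools rest on 7 and 2 reads. The log2 fold change was -2.28 by limma (SE 0.25, adjusted p = 0.0117) and -4.26 by edgeR on the reads (adjusted p = 0.0149). With a pseudocount of 0.1 in place of 0.5 RPM limma gave -3.43. A share of 13.95% of its exon bases lies under another gene and 17% of its stretches of 50 bases also occur in Gm44511, Klrb1a or Klrb1b, so that its count is uncertain to that extent. Il2rb (ENSMUSG00000068227, chromosome 15, 78479256 to 78495271) encodes the beta chain that binds interleukin-2 and interleukin-15. It measured 14.7 and 11.4 RPM against 2.25 and 1.40 RPM, with a log2 fold change of -2.56 (SE 0.26, limma adjusted p = 0.0106).

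**Figure D1:**
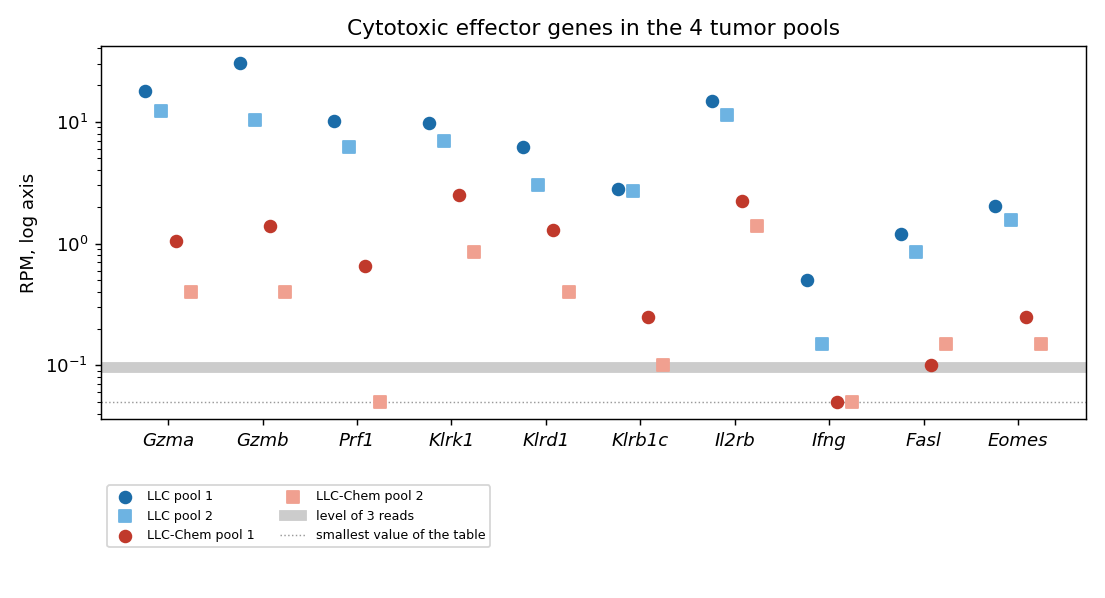
RPM of the 10 members in each of the 4 pools, on a log axis, with 1 point per pool (circles for pool 1, squares for pool 2). The grey band is the level of 3 reads and the dotted line the smallest value of the table; for each of the 10 genes both LLC points lie above both LLC-Chem points, and Prf1 and Ifng reach the bottom line.

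Interferon gamma, Fas ligand and Eomes had means under 1 RPM over the 4 pools and were not tested by the main fit. Ifng (ENSMUSG00000055170, chromosome 10, 118441046 to 118445892) was at 0.50 and 0.15 RPM in LLC against 0.05 RPM in both LLC-Chem pools. These values are 14, 3, 1 and 1 reads, and 25.95% of the exon bases of Ifng lie under another gene. Fasl (ENSMUSG00000000817, chromosome 1, 161780689 to 161788495) was at 1.20 and 0.85 RPM against 0.10 and 0.15 RPM, or 59 reads in the LLC pools against 6 in the LLC-Chem pools. Eomes (ENSMUSG00000032446, chromosome 9, 118478212 to 118486132) was at 2.05 and 1.55 RPM against 0.25 and 0.15 RPM, or 105 against 11 reads, so that its mean of 0.999 RPM was just under the limit. For all 3 genes the LLC pools lay above the LLC-Chem pools.

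With the limit lowered to a mean of 0.2 RPM, limma called Eomes (log2FC -1.71, adjusted p = 0.0182) and Fasl (log2FC -1.28, adjusted p = 0.0228) lower, where 9.81% of the 17084 genes tested were called lower. Both had LLC-Chem means under 0.2 RPM and entered this fit through their LLC level. edgeR on all 26260 genes above 0, of which it called 3.8% lower, gave log2 fold changes of -3.35 for Eomes (adjusted p = 0.0224) and -3.36 for Fasl (adjusted p = 0.0294). Ifng did not pass there (log2FC -3.04, adjusted p = 0.136). By summed reads the LLC-Chem level of Ifng was 10.3% of the LLC level, with a counting interval of 1.16% to 43.5%, so that the depth fixes the size of its difference only loosely.

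By limma, 7 of the 7 members tested were called lower in the LLC-Chem pools and 0 higher, where 13.5% of all 13694 genes tested were called lower and 9.54% higher. This count supports nothing by itself, since 5 of the 7 (Gzma, Gzmb, Prf1, Klrb1c and Klrd1) had an LLC-Chem mean under 1 RPM and entered the test through their LLC level. Klrk1 and Il2rb passed the limit in both groups. edgeR on the recovered reads called 6 of the 7, with 11.8% of all genes called lower. Over all 10 members, filtered or not, both LLC-Chem pools were under both LLC pools, an order found in 27.7% of the genes above 0 in any pool and in 39.3% of the genes tested. The 10 genes are expressed by the same kinds of cells and are not independent. Among all genes tested, ordered from the largest fall, Gzmb stood at position 6, Gzma at 8, Prf1 at 15, Il2rb at 58, Klrb1c at 94, Klrk1 at 117 and Klrd1 at 197. With any 1 of the 4 pools left out, limma called 0 members and 0 genes in all (1580 to 2823 genes lower and 998 to 2359 higher at an unadjusted p under 0.05). All 7 members kept negative log2 fold changes there, from -4.56 to -1.43. The lone pool of a group was assumed to vary like the other group in these fits. With 2 pools against 2, the smallest p of an exact permutation test is 0.33.

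**Figure D2:**
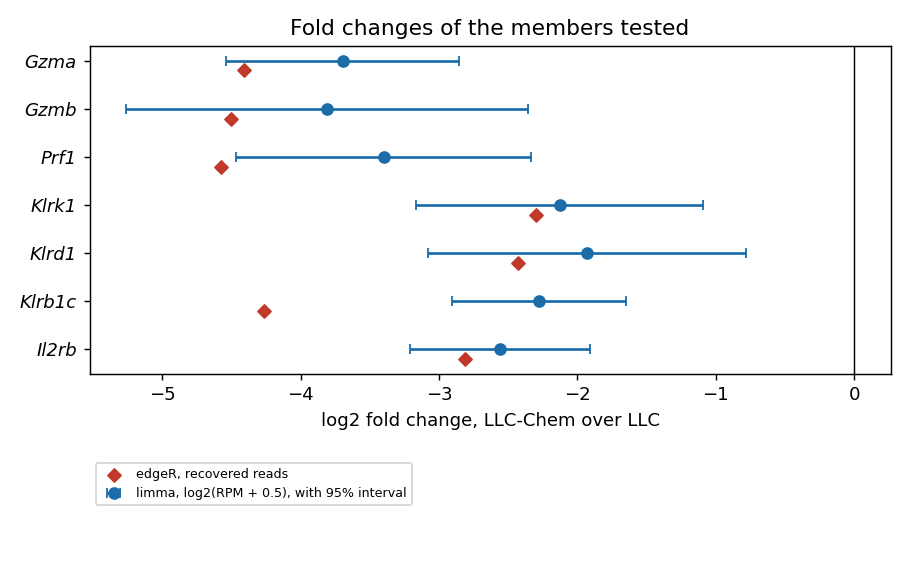
Log2 fold change of LLC-Chem over LLC for the 7 members tested, by limma on log2(RPM + 0.5) with its 95% interval (circles and bars) and by edgeR on the recovered reads (diamonds, no interval). Every interval lies below 0, with the upper end nearest to 0 for Klrd1 at -0.78, and the edgeR value is lower than the limma value for each gene.

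Levels between genes were compared per length, as RPM per kilobase of exon. The length counts every annotated exon base of a gene, from 1006 for Gzma to 7183 for Klrk1, whether used in these tumors or not. The order of the genes depends on it. In LLC tumors Gzma and Gzmb stood highest, at 15.0 and 14.2 RPM per kilobase (means of 2 pools), and their pools overlapped. Klrd1, Prf1 and Il2rb followed at 3.59, 3.14 and 3.05 RPM per kilobase, and their pools overlapped as well. Klrk1 stood at 1.17 and Klrb1c at 0.928 RPM per kilobase, with both Klrk1 pools above both Klrb1c pools. Fasl at 0.529, Eomes at 0.433 and Ifng at 0.251 RPM per kilobase came last, each overlapping its neighbour. In the LLC-Chem pools Gzma at 0.72, Klrd1 at 0.663 and Gzmb at 0.626 RPM per kilobase lay together. Prf1 at 0.135 stood below Il2rb at 0.425 without overlap. Klrk1 had a mean of 0.233, but its pools (0.348 and 0.118) overlapped those of Prf1 (0.251 and 0.0193, the latter from 1 read).

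The granule members and the receptor members were also set against each other. The summed level of Gzma, Gzmb and Prf1 was 58.3 and 28.9 RPM in LLC against 3.10 and 0.850 RPM in LLC-Chem, or 4.53% of the LLC level. The summed level of Klrk1, Klrd1, Klrb1c and Il2rb was 33.5 and 24.1 RPM against 6.30 and 2.75 RPM, or 15.7%. Klrb1c, a receptor, was near the granule genes, at 6.36% of its LLC level. The granule sum over the receptor sum was thus 1.74 and 1.20 in the LLC pools against 0.492 and 0.309 in the LLC-Chem pools, without overlap (exact permutation p = 0.33, two-sided, the smallest that 2 against 2 pools can give). Gzma over Klrk1, a single pair, was 1.82 and 1.76 against 0.42 and 0.471 (exact permutation p = 0.33). These ratios were chosen after the values were seen. The contrast covers these members only, not NK receptors in general. Of the other receptor genes named below, Ncr1, Klra8, Klrc1 and Klra7 stood at 5.32%, 5.61%, 6.12% and 8.82% of their LLC level, from few LLC-Chem reads. Slamf7, Klre1 and Klrb1b stood at 11.6%, 16.7% and 28.3%, and Crtam was higher in LLC-Chem.

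All 10 members were higher in the first LLC pool than in the second, by as little as 1.04-fold for Klrb1c, and 8 of 10 were higher in LLC-Chem pool 1 than in LLC-Chem pool 2. Ifng was equal in the LLC-Chem pools, and Fasl was higher in the second. The first LLC pool held 95.5 RPM over the 10 members, the second 55.6 RPM, and the LLC-Chem pools 9.79 and 3.95 RPM.

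The wider granule program was described by 21 further genes, 14 of which were tested. Of these 7 were called lower by limma, 0 higher, and their median log2 fold change was -1.20, where all genes tested had a median of -0.04. Like the members, the genes of this and the following lists entered the test at a mean of 1 RPM, which low genes reach only through the group where they are higher. Gzmc (chromosome 14, 24181 bases from Gzmb) measured 9.0 and 2.75 RPM in LLC against 0.60 and 0.25 RPM in LLC-Chem (log2FC -2.61, limma adjusted p = 0.0287). Granzymes C to G are close paralogs between which the counting could split reads. Nkg7, a granule membrane protein, fell to 0.75 and 0.25 RPM in LLC-Chem, from 7.95 and 5.85 RPM in LLC (log2FC -2.92, limma adjusted p = 0.0117). Ctsw, a cathepsin of NK and cytotoxic T cells, fell by 2.42 in log2FC (limma adjusted p = 0.0113), and Cst7, which encodes cystatin F, fell by 1.64 (limma adjusted p = 0.0208). The docking and release genes Unc13d, which encodes Munc13-4, and Rab27a fell by 1.60 and 1.22 in log2FC (limma adjusted p = 0.0136 and 0.0209). Gzmk was at 0.05 RPM in both LLC pools and at 0 in both LLC-Chem pools, under the level of 3 reads throughout.

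Among 28 other NK receptors and adaptors, 14 were tested, 11 were called lower and 1 higher by limma, and the median log2 fold change was -1.52. Slamf7, an activating receptor also carried by other leukocytes, fell to 5.05 and 3.05 RPM in LLC-Chem, from 43.7 and 26.2 RPM in LLC (log2FC -2.95, limma adjusted p = 0.0117). Ncr1 encodes NKp46, a receptor largely restricted to NK cells in the mouse. It fell to 0.20 and 0.05 RPM in LLC-Chem, from 2.20 and 2.50 RPM in LLC (log2FC -2.20, limma adjusted p = 0.0127). The Ly49 receptor genes Klra8 and Klra7 fell by 2.28 and 2.10 in log2FC (limma adjusted p = 0.0119 and 0.0184), Klrb1b fell by 1.60 (limma adjusted p = 0.0418) and Klre1 by 1.52 (limma adjusted p = 0.0257). Klrb1b was not called by edgeR on the recovered reads (adjusted p = 0.0607) nor by limma at a mean of at least 0.2 RPM (adjusted p = 0.0511). Ly49 genes form a close family, and their reads could be split between members by the counting.

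Hcst and Tyrobp encode DAP10 and DAP12, the adaptors through which NKG2D signals. Hcst fell to 1.40 and 1.00 RPM in LLC-Chem, from 3.80 and 6.40 RPM in LLC (log2FC -1.69, limma adjusted p = 0.0225). Tyrobp, which myeloid cells express widely, fell to 92.3 and 50.3 RPM in LLC-Chem, from 162.4 and 212.2 RPM in LLC (log2FC -1.44, limma adjusted p = 0.0294). Klrc1, which encodes NKG2A, the partner of CD94, was under the limit for testing at 1.25 and 1.20 RPM against 0.10 and 0.05 RPM. The gene called higher, named after its values were seen, was Crtam. It was at 6.30 and 5.60 RPM in LLC but at 13.9 and 17.0 RPM in LLC-Chem (log2FC 1.31, limma adjusted p = 0.0143).

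Of 15 lymphocyte transcription factors, 12 were tested and 3 were called lower, with a median log2 fold change of -0.30. Tbx21, which encodes T-bet, fell to 0.30 and 0.10 RPM in LLC-Chem, from 1.95 and 1.70 RPM in LLC (log2FC -1.74, limma adjusted p = 0.0174), beside the values of its relative Eomes given above. Prdm1 and Irf8 fell by 1.83 and 1.80 in log2FC (limma adjusted p = 0.0211 and 0.0158). Both are also expressed outside NK cells, and Irf8 in particular by myeloid cells.

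Of 28 cytokines, chemokines and their receptors in NK cell biology, 20 were tested, 13 were called lower and 0 higher, with a median log2 fold change of -1.15. The chemokine Ccl5 fell to 3.80 and 2.05 RPM in LLC-Chem, from 25.6 and 19.5 RPM in LLC (log2FC -2.79, limma adjusted p = 0.0116). Ccl3 and Ccl4 had log2 fold changes of -1.97 and -1.69 (limma adjusted p = 0.029 and 0.0463). Among receptor chains, Il12rb1 fell by 1.93 and Il2ra by 1.75 (limma adjusted p = 0.0141 and 0.0259), and the chemokine receptor Cx3cr1 fell by 1.85 (limma adjusted p = 0.0309). Il15, which encodes the cytokine read through Il2rb, measured 11.5 and 7.45 RPM against 5.65 and 4.70 RPM and was not called (log2FC -0.79, limma adjusted p = 0.0739).

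On the target side, 28 of 31 listed genes were in the table and 26 were tested. Of these 8 were called lower and 1 higher by limma, with a median log2 fold change of -0.43. Of the ligands of NKG2D tested, limma called 0 of 3 (2 of the 3, Raet1d upwards and Raet1e downwards, had an unadjusted p under 0.05). Raet1d measured 5.85 and 4.75 RPM against 8.40 and 9.29 RPM (log2FC 0.69, limma adjusted p = 0.0511) and was called higher by edgeR on the recovered reads (adjusted p = 0.0461), and is named here after its values were seen. Raet1e measured 14.2 and 12.1 RPM against 9.59 and 9.84 RPM (log2FC -0.42, limma adjusted p = 0.113). Raet1d lies within the annotated span of Raet1e on the same strand, so the counting may not keep their reads apart. The overlap of their exons was not measured. Pvr, a ligand of the activating receptor DNAM-1 and of the inhibitory receptor TIGIT, was the one gene called higher, from 58.5 and 41.7 RPM to 83.95 and 84.2 RPM (log2FC 0.76, limma adjusted p = 0.0345). H2-T23, which encodes Qa-1, the ligand of CD94 with NKG2A, fell by 0.68 (limma adjusted p = 0.0225). Clec2i, a ligand of an NKR-P1 receptor, fell by 1.80 (limma adjusted p = 0.016).

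Fas, the receptor of Fas ligand, measured 13.3 and 12.3 RPM against 11.9 and 14.7 RPM and its groups overlapped (log2FC 0.05, 95% interval -0.37 to 0.47, limma adjusted p = 0.834). Bid, a pro-apoptotic relative of Bcl-2, fell by 0.84 in log2FC (limma adjusted p = 0.0255). Of 10 genes of the interferon gamma receptor and response, 3 were called lower. Among them Cxcl9 was at 8.55 and 5.45 RPM in LLC but at 2.35 and 1.55 RPM in LLC-Chem (log2FC -1.60, limma adjusted p = 0.0241) and Ciita at 8.20 and 12.1 RPM against 4.45 and 1.45 RPM (log2FC -1.76, limma adjusted p = 0.0485). Ciita was not called by edgeR on the recovered reads (adjusted p = 0.0708).

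Several markers of other leukocytes were lower in the LLC-Chem pools as well. Ptprc, which encodes the leukocyte antigen CD45, was at 124.5 and 124.3 RPM in LLC but at 55.2 and 29.3 RPM in LLC-Chem (log2FC -1.62, limma adjusted p = 0.0218). Of 14 T cell markers 6 were tested and 3 were called lower, and their summed level was 19.9 to 25.6 RPM in LLC against 4.55 to 8.80 RPM in LLC-Chem. Those called were Lck (log2FC -2.25, limma adjusted p = 0.0131), Trbc1 (-1.97, adjusted p = 0.0236) and Trbc2 (-1.60, adjusted p = 0.0397). Trbc2 was not called by edgeR on the recovered reads (adjusted p = 0.0666). Lck is also expressed by NK cells. The defining genes were low in all pools: Cd3e was at 0.65 and 0.40 RPM against 0.15 and 0.10 RPM, and Cd8a at 0.85 and 0.50 RPM against 0 and 0.10 RPM. Cd3g and Foxp3 were at 0 in the second LLC-Chem pool. Cd4 was at 2.00 and 2.05 RPM in LLC but at 1.40 and 0.25 RPM in LLC-Chem and was not called (log2FC -1.08, limma adjusted p = 0.137). The part of T cells in the values of the members was not tested.

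Of 28 leukocyte and myeloid markers 20 were tested, 12 were called lower and 0 higher, with a median log2 fold change of -1.46. The neutrophil genes Csf3r, S100a9 and S100a8 fell by 2.49, 2.22 and 1.95 in log2FC (limma adjusted p = 0.0156, 0.041 and 0.0387). The summed neutrophil markers stood at 110.5 to 180.8 RPM in LLC against 17.3 to 42.5 RPM in LLC-Chem, with Ly6g at 0 in the first LLC-Chem pool. The mast cell proteases Mcpt4 and Tpsb2 fell by 1.92 and 1.71 (limma adjusted p = 0.0349 and 0.0335), and the summed mast cell and basophil markers stood at 21.3 to 49.4 RPM against 7.60 to 10.2 RPM, with Mcpt8 at 0 in the second LLC-Chem pool. Cd52, expressed by most leukocytes, fell by 1.67 (limma adjusted p = 0.0158). Macrophage markers summed to 1687 to 2095 RPM against 936.2 to 1446 RPM, with 1 of 5 called. Dendritic cell markers summed to 26.3 to 31.5 RPM against 20.1 to 22.4 RPM, with 1 of 3 tested called lower. However, 1 of the 5 listed was higher in both LLC-Chem pools than in both LLC pools. The 3 B cell markers were under the limit for testing. They summed to 1.85 and 0.40 RPM in LLC against 0.70 and 0.35 RPM in LLC-Chem, with overlap. The share of each of these cell types in the values of the members was not tested.

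**Figure D3:**
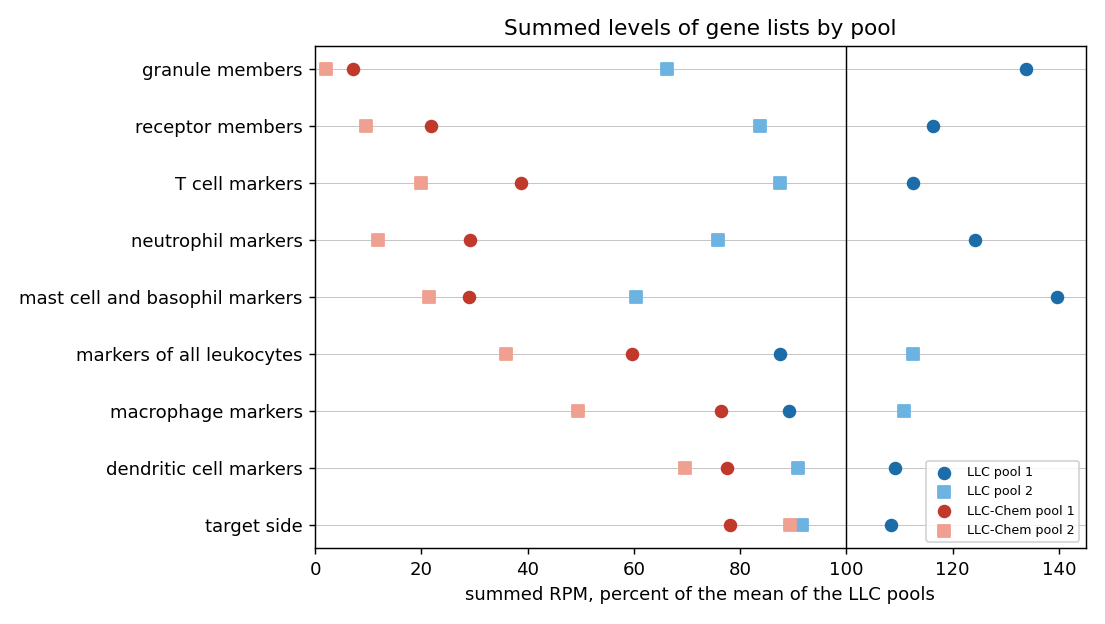
Summed RPM of gene lists in each pool, as a percent of the mean of the LLC pools (vertical line at 100), with circles for pool 1 and squares for pool 2. Among the 9 lists drawn, the granule members stood at 4.53% of the LLC level over both LLC-Chem pools and the receptor members at 15.7%. Neutrophil markers stood at 20.5%, mast cell and basophil markers at 25.2% and T cell markers at 29.3%. Macrophage markers stood at 63% and the target side at 83.7%.

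Since Ptprc itself was lower in the LLC-Chem pools, the members were also set against it within each pool. Per 1000 RPM of Ptprc, Gzma stood at 143.3 and 98.9 RPM in LLC against 19.0 and 13.7 RPM in LLC-Chem. Prf1 stood at 80.7 and 49.8 RPM against 11.8 and 1.71 RPM. Klrb1c stood at 22.5 and 21.7 RPM against 4.53 and 3.41 RPM. For Il2rb, Klrk1 and Klrd1 the ratios were closer. Il2rb stood at 118 and 92.0 RPM against 40.7 and 47.8 RPM, and Klrk1 at 78.7 and 56.3 RPM against 45.2 and 29.0 RPM. Klrd1 stood at 49.8 and 24.1 RPM against 23.5 and 13.7 RPM, where the nearest pools almost meet. Fasl, which was not tested at the limit of 1 RPM, had nearest pools of 6.83 and 5.12 RPM. In 9 of the 10 members, all but Ifng, both LLC-Chem ratios were under both LLC ratios, an order found in 3.37% of all genes above 0. This share is low in part because Ptprc itself fell, which raises the LLC-Chem ratio of every gene that fell less. The count of 9 thus supports nothing by itself. The ratio of the 10 members together to Ptprc was 76.7% and 44.7% against 17.7% and 13.5% (exact permutation p = 0.33, two-sided). The comparison with Ptprc was added after the values were seen.

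**Figure D4:**
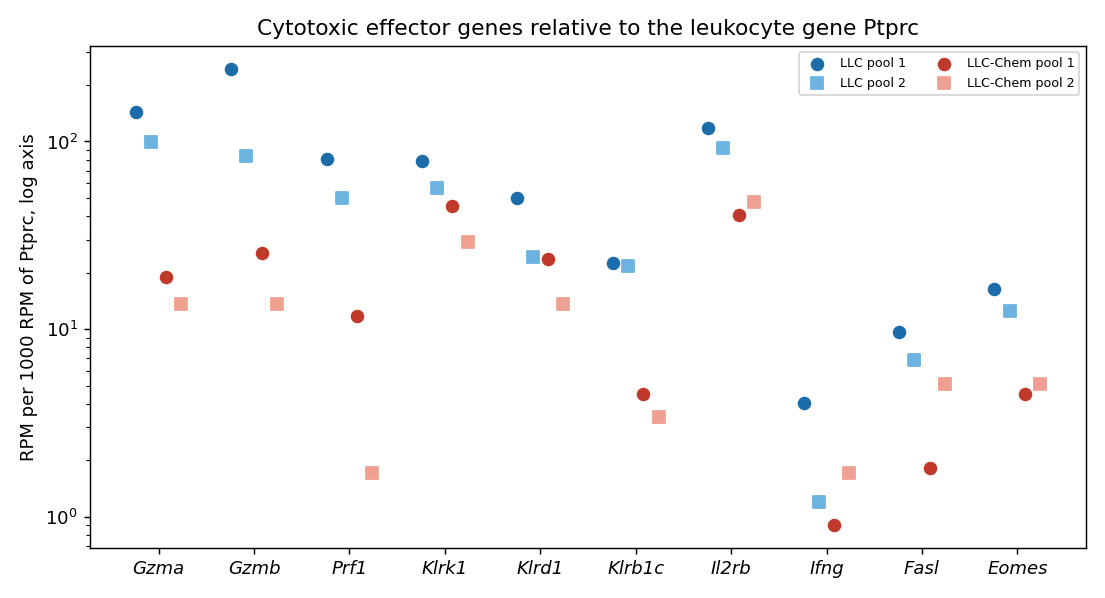
RPM of each member per 1000 RPM of Ptprc in the same pool, on a log axis, with 1 point per pool (circles for pool 1, squares for pool 2). The LLC and LLC-Chem points are far apart for Gzma and nearly meet for Klrd1, where the lower LLC pool is at 24.1 and the higher LLC-Chem pool at 23.5, and they overlap for Ifng.

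Among the 5 genes of the whole table whose profile over the 4 pools lay nearest to the mean profile of the 7 members tested were Ccl5, Nkg7, Slamf7 and Gimap4. The measure was the root mean square distance of log2(RPM + 0.5), each gene centred on its own mean, and these 4 genes lay at 0.0979 to 0.108. The members themselves lay at 0.202 (Il2rb) to 0.584 (Gzmb) from their mean. Gimap4, a GTPase of lymphocytes, measured 18.5 and 10.9 RPM in LLC against 2.80 and 1.20 RPM in LLC-Chem. With 4 pools such a nearness describes these libraries only.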

How the data were processed

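RNA from 4 pools of 3 tumors was sequenced as paired ends after a TruSeq preparation. Per the labels and the study's methods, the authors mapped the reads to GRCm38.p4 (mm10) with STAR, counted them on Ensembl release 84 genes with HTSeq and deposited RPM. Tool versions and the use of strand are not given in the sources used here. Neither are the sources of the pools beyond their labels, so that p-values measure the spread between 2 pools per group. All nonzero deposited RPM values (100%) were whole multiples, within 0.0112 of a step, of a step fitted to each pool without rounding (about 0.04997 RPM), so the authors appear to have scaled each pool to 20000000 reads and rounded up, and reads were recovered to within 1 read.

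The groups were compared by limma 3.58.1 (R 4.3.3, eBayes with a trend, two-sided) on log2 of RPM plus 0.5. Genes entered when their mean reached 1 RPM (13694 genes), p was adjusted over them by Benjamini-Hochberg, and calls were made at an adjusted p under 0.05. edgeR 4.0.16 (quasi-likelihood test) was run on the recovered reads as an alternative. On simulated data for this comparison (13694 genes) limma recovered 18 of 50 genes changed by 1 on the log2 scale and 42 of 50 changed by 2. It recovered 45 of 50 changed by 3 and 46 of 50 changed by 4, and 4 of its 155 calls were unchanged genes. The changed genes were few and drawn independently, with spreads from the same pools, so that these counts need not hold for the real comparison. Other alternatives were pseudocounts of 0.1 and 1, other limits on low values, TMM scaling, eBayes without trend, the replicate number as a block and leaving out each pool. edgeR and the crossed block were added after the data were seen. Counting intervals are exact binomial at 95%.

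The members and the 7 lists of 165 further genes (162 matched in the table) were chosen with earlier results of these data known. The genes named are the 10 members, the transfected gene and its receptor, and defining genes of the cell types. Genes among the 5 nearest profiles are named too, with the called genes of each list. Where more than 6 genes of a list were called, those with the 6 largest changes are named. In the receptor list Klre1, Tyrobp and Crtam are named beyond these, but not every called gene with a larger change. Some genes that were not tested or not called are also named, among them Gzmk, Klrc1, Il15, Raet1d, Raet1e and Fas. Results for 2 further genes are not reported here. GENCODE M21 (GRCm38), used for coordinates and exon lengths, covers 47224 (98.9%) of 47729 identifiers. Promoters are from RefSeq on GRCm38.p6. Python 3.11.15 with pandas 2.3.3 and matplotlib 3.10.9 served for sums, ratios and figures.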

Additional observations from a re-analysis of the deposited data

How the results depend on the processing

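Across the settings tried on all 4 pools, the 7 members tested kept negative log2 fold changes in 70 of 70 values, and 59 of them stayed on the same side of the threshold. The members called lower by limma numbered 7 in the main fit, with pseudocounts of 0.1 and 1, with TMM scaling and with the replicate number as a block. They numbered 6 without a trend and 6 by edgeR, both without Klrd1, 9 of 9 at a mean of at least 0.2 RPM (Eomes, Fasl and Klrb1c entered through their LLC level), and 7 of 10 by edgeR on all genes above 0, which lost Klrk1 and Klrd1 and gained Eomes and Fasl. When limma tested all genes above 0 in any pool, it called 0 members lower (9 of 10 at an unadjusted p under 0.05, and 10 of 10 by edgeR), 0 genes lower and 1 higher over the whole table (4003 and 3394 at an unadjusted p), and 0 genes of any list. By edgeR on those genes 999 were called lower, with 5 genes of the cytokine list, 1 T cell marker and 5 leukocyte and myeloid markers. At a mean of at least 0.2 RPM, 19 receptors and adaptors and 5 T cell markers were called. Of the further genes named as lower, limma lost Klrb1b, Ciita, Ccl4 and S100a9 at that limit. Without a trend, 5 leukocyte and myeloid markers were called. Deviations of same-numbered pools correlated at -0.1405 over the genes, and no source pairs them, so they were not treated as pairs. With the replicate block, 1064 genes were called lower and 549 higher, and 4 on the target side. With the numbers crossed, 2320 genes were called lower and 1579 higher, and 5 transcription factors and 15 genes of the target side. The block changed no call of a member. With any 1 pool left out, counts ranged from 0 to 0 for the members, all genes and every list, with fewer residual degrees of freedom by construction. The cause of the other changes was not tested. Depth limits Ifng, Fasl, Eomes and the LLC-Chem values of Prf1 and Klrb1c, which rest on few reads.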
